A study of Mus musculus with 32 samples.

Results

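The genes described here are 10 mouse genes of simple epithelia: the keratin genes Krt7, Krt8, Krt18 and Krt19, the adhesion and junction genes Cdh1, Epcam, Cldn6 and Dsp, and the regulators Ovol2 and Esrp1. They were picked by name out of 24028 gene symbols, with their levels in these same libraries known, and all 10 had a value in both libraries. Their levels and differences are therefore a description, and nothing was tested on them.

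RNA was sequenced from mouse embryonic stem cells (mESCs), either wild type (WT) or labelled Eed-/-, to compare transcription with and without EED, a subunit of the Polycomb complex PRC2 that methylates histone H3 at lysine 27. Each genotype gave 1 library. Both samples carry the strain label TT2 and were grown on gelatin in medium with serum and leukemia inhibiting factor. The mutation and the number of clones behind the Eed-/- cells are not given in the sources used here, and the Eed-/- samples of other assays in the study name another strain.

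Keratins of type I and type II pair to build the intermediate filaments of epithelial cells, and Krt8 with Krt18 is the pair made first in the embryo. E-cadherin (Cdh1), EpCAM, claudins and desmosomal proteins hold neighbouring cells together, while OVOL and ESRP proteins keep the epithelial pattern of transcription and splicing. mESCs grow as compact colonies joined by E-cadherin, and the earliest epithelium of the embryo, the trophectoderm, makes the simple keratins.

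The deposited values are FPKM, fragment numbers divided by the length of the transcript and by the mapped reads, so levels can be compared between genes. The steps between low values gave depths of about 7240000 fragments in WT against 6460000 in the library labelled Eed-/-. For a 2 kb transcript, a value of 2 FPKM corresponds to 26.4 and 23.5 fragments, and the intervals below are 95% counting intervals at these depths. They leave out the spread between cultures, which 1 library per genotype cannot give. Eed itself had an FPKM of 63.0 in WT against 70.9 in the library labelled Eed-/-, and its transcript was thus not reduced. The paper checked the loss of Eed in its knockout cells through H3K27me3, by western blots and ChIP-seq. The second library is called by its label throughout. All 12 pluripotency markers looked up passed the filter on low values in these cells, among them Pou5f1 at 393 and 373. In a culture, fewer cells that express a gene and less RNA of it per cell cannot be told apart.

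Of the 10 genes, 8 had a lower and 2 a higher level in the library labelled Eed-/-, the latter Dsp and Epcam, of which Epcam turned lower with the FPKM as deposited. Changes were taken as differences in log2(FPKM + 1) after quantile normalization, Eed-/- minus WT, a scale that understates the change of low genes. Ovol2, Cdh1 and Krt18 were at least 2-fold lower on this scale, and 0 of the 10 were at least 2-fold higher. Of the 14835 genes that averaged 0.1 FPKM or more after normalization, all 10 included, 7263 (49.0%) had a change below 0. At least 2-fold lower were 590 (3.98%) and at least 2-fold higher 564 (3.80%). Above a mean FPKM of 1, where Krt7 no longer counts, these shares were 5.05% and 4.76% of 10819 genes. Since the genes were chosen with these values in view, nothing is read from the count. Their median change was -0.61, beside 0.01 over all genes used, and their median FPKM was 6.91 in WT against 4.11 in the library labelled Eed-/-. Nearest to the 2-fold bound, Krt18 lay just past it at -1.06 and Krt7 short of it at -0.83. On counting error alone, the 95% interval of the ratio of the deposited FPKM, Eed-/- over WT, lay below 1 for 7 genes. It lay above 1 for Dsp and included 1 for Krt19 and Epcam. That of Esrp1 ended at 0.996, only just below 1. The scaling of the deposited values, which put the median change of all genes at -0.09, was not taken out of these intervals. How many of all genes had an interval below 1 was not counted, so the 7 have no background.

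**Figure D1:**
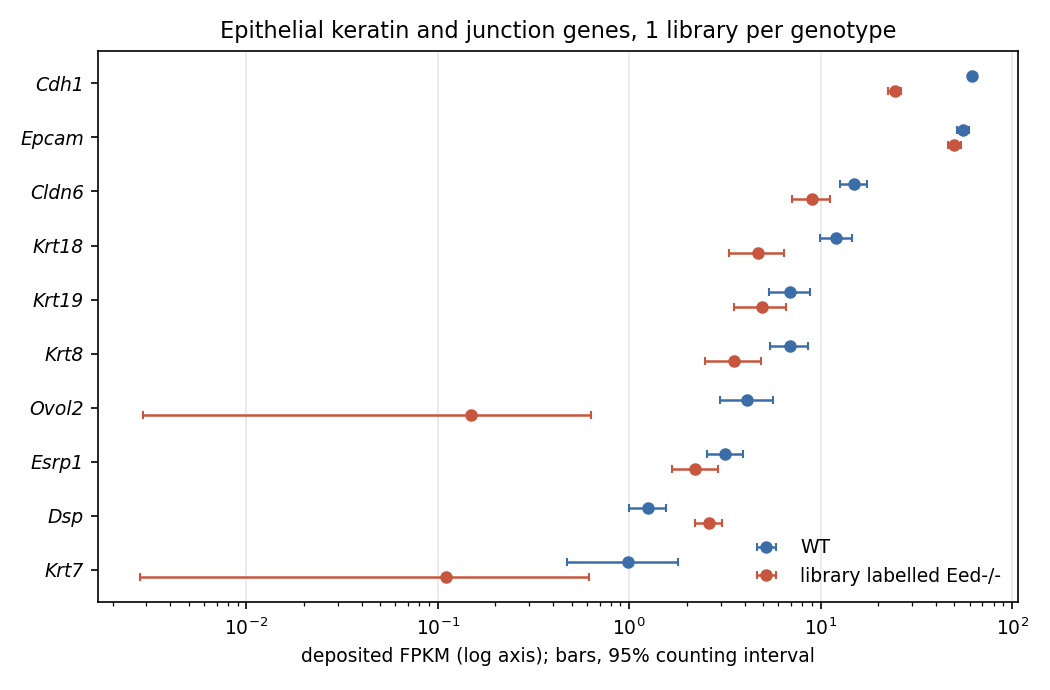
Deposited FPKM of the 10 genes (x axis, log scale; y axis, genes in the order of their WT level) in blue for WT and in red for the library labelled Eed-/-, with 95% counting intervals as bars. Cdh1, Cldn6, Krt18, Krt8 and Ovol2 lie to the left of their WT values with no overlap of the bars, those of Epcam, Krt19, Esrp1 and Krt7 overlap, and Dsp lies to the right.

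The levels spanned a wide range. In WT, Cdh1 at 62.0 and Epcam at 55.2 stood highest, followed by Cldn6, Krt18, Krt19, Krt8, Ovol2, Esrp1, Dsp and Krt7 at 0.981. Going down this order in WT, the counting intervals of neighbours overlapped except between Epcam and Cldn6, Krt18 and Krt19, and Esrp1 and Dsp. In the library labelled Eed-/- the order was Epcam, Cdh1, Cldn6, Krt19, Krt18, Krt8, Dsp, Esrp1, Ovol2 and Krt7, with no overlap among the first 4 or between Esrp1 and Ovol2. Epcam took the first place from Cdh1, and Dsp moved above Esrp1 and Ovol2.

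All 4 keratins had lower values in the library labelled Eed-/-, and only Krt18 was past 2-fold on the log2(FPKM + 1) scale. Krt18, the type I partner of Krt8, had an FPKM of 12.1 in WT against 4.69 in the library labelled Eed-/-, or about 107 and 37.0 fragments. The WT value was 2.58 times the other (counting interval 1.76 to 3.86). Krt8, the type II partner, had 6.88 and 3.53, from 81.0 and 37.0 fragments, a ratio of 1.95 (1.31 to 2.97) and a change of -0.69. Krt8 has 1 near-identical copy in the genome, so reads of its transcript could be split between them. Krt19, a small type I keratin, had 6.93 and 4.93, a ratio of 1.41 (0.96 to 2.12) and a change of -0.29, a difference that counting error alone could give. Krt7, a type II keratin of simple and ductal epithelia, had 0.981 and 0.110. The smallest pair of whole fragment numbers in this ratio is 9.99 against 1.00, which gives a ratio of 8.91 with a wide interval of 1.27 to 387.

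Krt8 (chromosome 15 of mm9, 101827142 to 101834773, minus strand) and Krt18 (101858647 to 101862457, plus strand) lie 23874 bp apart, head to head, and Krt7 lies on the same chromosome from 101241474 to 101260744. Krt19 is on the minus strand of chromosome 11, from 100002124 to 100009979. The 250 bases before the RefSeq starts of Krt8 (chr15:101834774-101835023, minus strand) and Krt18 (chr15:101858397-101858646, plus strand) are shown because these partner genes were lower side by side. The sequences come from a RefSeq table on GRCm38.p6 and were each found once, without mismatch, in mm9. Capitals mark matches to 6 motifs searched on both strands, CAGGTG (the E2-box of SNAI and ZEB factors), GGGCGG (the GC box of SP and KLF factors), AACCGG (GRHL), CCGTTA (OVOL), GCCNNNGGC (AP-2) and, for the TATA box, TATAAA.
Krt8: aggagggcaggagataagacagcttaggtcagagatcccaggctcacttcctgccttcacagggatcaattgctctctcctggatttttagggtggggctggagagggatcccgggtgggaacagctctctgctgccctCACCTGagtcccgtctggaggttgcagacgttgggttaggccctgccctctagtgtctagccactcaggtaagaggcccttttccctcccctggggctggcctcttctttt
Krt18: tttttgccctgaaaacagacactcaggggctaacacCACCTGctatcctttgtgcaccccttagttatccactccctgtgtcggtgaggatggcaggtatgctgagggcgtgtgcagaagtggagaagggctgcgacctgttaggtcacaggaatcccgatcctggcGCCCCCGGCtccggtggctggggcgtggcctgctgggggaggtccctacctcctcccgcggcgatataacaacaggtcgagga
Both windows hold 1 E2-box, from -111 to -106 before the start of Krt8 and from -214 to -209 before that of Krt18. Krt18 also holds 1 match to the AP-2 motif, from -83 to -75. Krt8 has 3 CpG dinucleotides in its window and Krt18 has 12, beside a median of 6 over all 32851 windows of this length. The E2-box letters occur in 17.2% of all windows and the AP-2 letters in 13.7%, and a match is only a description of the sequence.

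Taken by type, the summed FPKM of the type II genes Krt7 and Krt8 was 7.86 in WT against 3.64 in the library labelled Eed-/-, and that of the type I genes Krt18 and Krt19 was 19.0 and 9.62. The ratio of type I to type II RNA was 2.42 in WT and 2.65 in the other library. Within the classical pair, the ratio of Krt18 to Krt8 was 1.76 and 1.33.

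The rest of the keratin family did not move as 1 group. Of 52 keratin symbols listed, 28 were at 0 in both libraries and 15 passed the filter on low values. Of these 15, Krt42 and Krt18 were at least 2-fold lower and Krt13 at least 2-fold higher, beside 3.98% and 3.80% of all genes used. Krt42, a type I keratin, was the most abundant keratin in WT, with an FPKM of 152 against 11.8 in the library labelled Eed-/-, with a change of -3.39. Krt17, another type I keratin, stood at 15.6 and 14.2, above each of the 4 simple keratins, with a change of 0.01. Krt13, a type I keratin of mucosal epithelia whose gene lies 19244 bp from Krt19, had 0.607 and 2.46. These values stand for about 6.48 and 23.4 fragments, and the ratio to WT was 4.04 (1.70 to 12.9). The median change of the 11 other keratins that passed the filter was 0.01, and over all 15 it was -0.29. Only 6 of the 52 keratins reached a normalized FPKM of 1 in either library. Most of these 11 therefore lie near the floor, where the added 1 draws changes towards 0. Krt7, Krt8, Krt18 and Krt19 together made up 13.6% of all keratin FPKM in WT against 29.8% in the library labelled Eed-/-, where the sum over all keratins was 44.5 instead of 197.

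**Figure D2:**
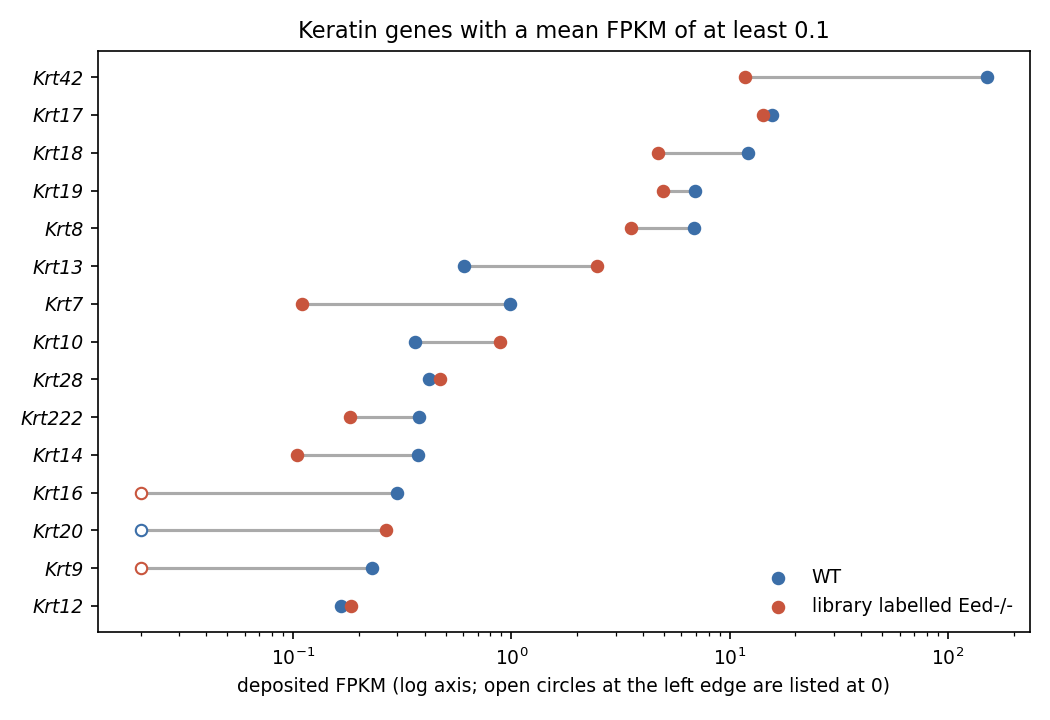
Deposited FPKM (x axis, log scale) of the 15 keratin genes that passed the filter on low values (y axis), in blue for WT and in red for the library labelled Eed-/-, with a grey line joining the libraries and open circles for values listed at 0. Krt42 shows the longest shift among the abundant keratins, Krt17 hardly moved, and Krt13 lies the other way from Krt8, Krt18 and Krt19.

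Among the adhesion and junction genes, Cdh1 was lower, Cldn6 somewhat lower, Epcam level and Dsp higher. Cdh1, which encodes E-cadherin of adherens junctions (chromosome 8, 109127251 to 109194146, plus strand), had an FPKM of 62.0 in WT against 24.3 in the library labelled Eed-/-, from about 1906 and 667 fragments. The ratio was 2.55 (2.33 to 2.79), for its size the narrowest interval of the 10 genes, and the change was -1.11. Genes of chromosome 8 were lower as a whole in this library, with a median change of -0.38 over 702 genes, and 11.5% of them were at least 2-fold lower. Relative to that median, Cdh1 changed by -0.73 and did not reach 2-fold. The part of the chromosome-wide shift in the result was not tested. Cdh3, the P-cadherin gene 46443 bp before Cdh1, had 9.23 and 7.64 and a change of -0.11, and Zfp90 before it changed by -0.01. On the other side, Has3 changed by -0.01 and the farther Chtf8 by -0.89.

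Epcam, a homophilic adhesion molecule (chromosome 17, 88035319 to 88050446, plus strand), had an FPKM of 55.2 in WT against 50.0 in the library labelled Eed-/-. The ratio was 1.10 (0.99 to 1.23), within counting error, and its sign depends on the scaling, at 0.09 after normalization and -0.14 as deposited. With Cdh1 lower and Epcam level, the ratio of Cdh1 to Epcam went from 1.12 to 0.486. Cldn6, an early embryonic claudin of tight junctions (chromosome 17, 23816332 to 23819413, plus strand), had 14.9 and 8.98, from 143 and 76.9 fragments. The ratio was 1.65 (1.25 to 2.22) and the change -0.53. Its neighbour Cldn9, 139 bp further on, was near the bottom of the range, at 0.546 and 0.245.

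Dsp, which encodes desmoplakin, the plaque protein that ties keratin filaments to desmosomes (chromosome 13, 38243197 to 38290446, plus strand), went the other way. It had an FPKM of 1.25 in WT against 2.60 in the library labelled Eed-/-, from about 84.8 and 157 fragments. The value in the library labelled Eed-/- was 2.08 times that in WT (1.58 to 2.73). On the log2(FPKM + 1) scale the change was 0.72, short of 2-fold, since the added 1 weighs heavily at such levels. Its neighbour Snrnp48 changed by 0.01 and the farther Bmp6, at 0.186 and 0.486 FPKM, by 0.33. On the other side, Riok1 changed by -0.18. An antisense gene, Gm10129, shares 360 exon bases with Dsp, and whether strand was used in the counting is not given.

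The windows before the starts of Epcam (chr17:88035069-88035318), Cldn6 (chr17:23816082-23816331) and Dsp (chr13:38242913-38243162), all on the plus strand, are shown with the same motifs in capitals, because these genes stood level, lower and higher.
Epcam: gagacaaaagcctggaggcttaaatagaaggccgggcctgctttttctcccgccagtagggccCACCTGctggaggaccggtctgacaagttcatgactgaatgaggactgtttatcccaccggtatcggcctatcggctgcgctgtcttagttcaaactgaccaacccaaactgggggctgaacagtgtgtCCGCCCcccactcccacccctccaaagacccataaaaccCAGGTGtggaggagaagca
Cldn6: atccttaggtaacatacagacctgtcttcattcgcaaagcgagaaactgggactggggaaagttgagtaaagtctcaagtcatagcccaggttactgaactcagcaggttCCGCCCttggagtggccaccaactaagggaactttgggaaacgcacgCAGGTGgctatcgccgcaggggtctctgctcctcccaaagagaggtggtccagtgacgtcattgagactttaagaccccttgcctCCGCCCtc
Dsp: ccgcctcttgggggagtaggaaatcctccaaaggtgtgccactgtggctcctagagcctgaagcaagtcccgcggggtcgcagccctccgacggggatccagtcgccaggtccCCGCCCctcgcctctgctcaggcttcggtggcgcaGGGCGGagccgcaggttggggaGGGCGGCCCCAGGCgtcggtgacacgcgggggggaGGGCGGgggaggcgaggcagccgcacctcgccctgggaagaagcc
Epcam holds 2 E2-boxes, the nearer from -19 to -14, and 1 GC box. Cldn6 holds 1 E2-box, from -93 to -88, and 2 GC boxes. Dsp holds 4 GC boxes and 1 AP-2 match that overlaps one of them by 1 base, no E2-box, and 22 CpG dinucleotides. Of the 10 genes, 7 had a window in the table, namely Krt7, Krt8, Krt18, Epcam, Ovol2, Cldn6 and Dsp. The E2-box letters occurred in 5 of the 7, the GC box in 4 and the AP-2 letters in 3, beside 17.2%, 32.7% and 13.7% of all windows, and the GRHL, OVOL and TATA letters in 0 of the 7, beside 5.62%, 2.18% and 12.4%. Ovol2, with 20 CpG dinucleotides, held none of the 6 motifs. The windows of Krt7 and Ovol2 overlap annotated exons and are not printed. The motif letters were searched in these 250 bases alone, and nothing about binding follows from them.

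The regulators were both lower, Ovol2 far more than Esrp1. Ovol2, a zinc-finger repressor of mesenchymal genes (chromosome 2, 144130911 to 144157882, minus strand), had an FPKM of 4.13 in WT against 0.150 in the library labelled Eed-/-. These values stand for about 40.9 and 1.32 fragments. The ratio was 27.6 with an interval of 6.21 to 1480, so its lower bound is known far better than its size. The change was -2.12, which placed Ovol2 at position 54 from the lowest of 14835 genes. Its neighbours Snx5 and Snord17 on one side changed by -0.62 and -0.65. On the other side, Csrp2bp changed by -0.08 and Zfp133-ps, at 0.918 and 0 FPKM, by -0.92. The antisense gene 1700108N11Rik shares 359 exon bases with Ovol2.

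Esrp1, an RNA-binding protein that sets epithelial splicing (chromosome 4, 11259080 to 11313930, minus strand), had 3.18 and 2.21, from 84.8 and 52.6 fragments. The ratio was 1.44 with an interval of 1.00 to 2.06, and the change was -0.31. Its neighbours Dpy19l4 and Ints8 on one side changed by -0.55 and -0.81, and 1110037F02Rik and Gem on the other by -0.92 and 0.11. Its exons share 127 bases with the antisense gene Gm16652.

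**Figure D3:**
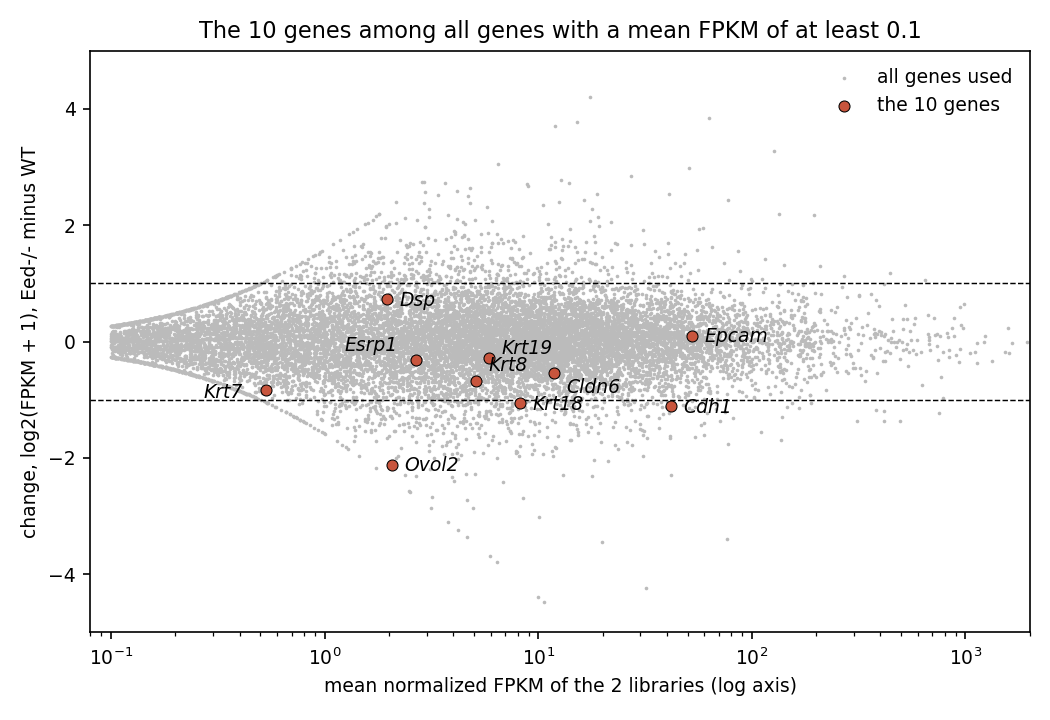
Change on the log2(FPKM + 1) scale, Eed-/- minus WT (y axis), against the mean normalized FPKM (x axis, log scale) for the 14835 genes used (grey; 70 genes outside the axes are not drawn) and the 10 genes (red), with dashed lines at 2-fold. Ovol2 lies well below the lower line, Cdh1 and Krt18 just below it, and Dsp above 0 at 0.72.

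Genes of the same pathways were taken from lists of epithelial and mesenchymal genes. Beyond the 10, the epithelial lists held 146 genes, of which 84 passed the filter. Of these, Krt42, Pard3, Pard6b and Tfap2c (4.76%) were at least 2-fold lower and Krt13 (1.19%) at least 2-fold higher, with a median change of -0.17. Of all genes used, 3.98% were at least 2-fold lower and 3.80% higher, and these shares also stand beside the counts of single lists. The counts and medians of single lists include those of the 10 that belong to them. Claudins (11 genes with Cldn6) had a median of -0.08, or -0.07 over the other 10, with 0 genes past 2-fold in either direction on the log2(FPKM + 1) scale. Of the 11, 7 were below 0 and 4 above, where 49.0% of all genes used were below. Only 7 of 25 claudins reached a normalized FPKM of 1 in either library. Cldn4, the most abundant claudin in WT, had an FPKM of 20.8 in WT against 9.58 in the library labelled Eed-/- (a change of -0.89). Its FPKM ratio was 2.17 (1.71 to 2.76). Cldn7, picked after its values were seen, had 5.36 and 2.05, a change of -0.97, while Cldn12 stood at 10.3 and 9.83. The desmosome list (10 genes with Dsp) had a median of 0.08, or 0.05 over the other 9. Its 3 most abundant genes differed little in FPKM, while 3 of its 10 genes were below 0, beside 49.0% of all genes used. Jup, which encodes plakoglobin, had 22.8 and 24.6, Perp had 26.3 and 28.5, and Pkp4, a relative of the plakophilins, had 31.3 and 28.4. Evpl, which encodes the plakin envoplakin and was picked after its values were seen, had 1.94 and 0.474, a change of -0.96.

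The catenins that bind E-cadherin stayed nearer to their WT levels. In the adherens junction list, Cdh1 was the 1 gene of 12 past 2-fold, and the median was -0.10. Over the other 11 genes the median was -0.09. Ctnnb1, which encodes beta-catenin, had 204 and 167 and a change of -0.06, and Ctnna1, which encodes alpha-catenin, had 146 and 110 and a change of -0.13. In the tight junction and polarity list, 13 of 15 genes were below 0, beside 49.0% of all genes used, and the median was -0.73. Pard3 (17.9 and 7.11, a change of -1.07) and Pard6b (13.1 and 5.30, -1.03), which encode scaffolds of the apical PAR complex, were past 2-fold, and Pard3 lies on chromosome 8 and changed by -0.69 relative to its median. The scaffold gene Tjp1 (24.2 and 21.1) and the polarity gene Llgl2 (34.7 and 26.0) were short of it. The 16 surface and traffic genes, Epcam included, had a median of -0.37 with 0 past 2-fold, and the other 15 a median of -0.38. Spint2, a protease inhibitor, had 67.6 and 34.0, and its relative Spint1 had 14.7 and 15.2.

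Of the 15 epithelial regulators that passed the filter, Ovol2 and Tfap2c were at least 2-fold lower and 0 were at least 2-fold higher, with a median of -0.14. Without Ovol2 and Esrp1, Tfap2c was the 1 gene of 13 at least 2-fold lower, and the median was -0.04. Tfap2c, an AP-2 transcription factor of the trophectoderm and germ line, had an FPKM of 39.8 in WT against 9.21 in the library labelled Eed-/-, with a change of -1.85. Klf4, a pluripotency factor also made in epithelia, had 25.5 and 44.4, a change of 0.99, and its relative Klf5 had 15.2 and 20.8. Of 10 mesenchymal genes used, 7 were above 0 and 3 below, where 49.0% of all genes used were below. Their median was 0.24, and Vim was the 1 gene past 2-fold. Vim encodes vimentin, the intermediate filament protein of mesenchymal cells, and had 24.9 in WT against 118 in the library labelled Eed-/-, a change of 2.44. Fn1 had 55.9 and 33.5, and Sparc 71.9 and 67.9. Cdh2, a cadherin gene of this list picked after its values were seen, went down like Cdh1. It had 1.89 and 0.798, a change of -0.64, and the ratio of Cdh1 to Cdh2 was 32.8 and 30.5.

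**Figure D4:**
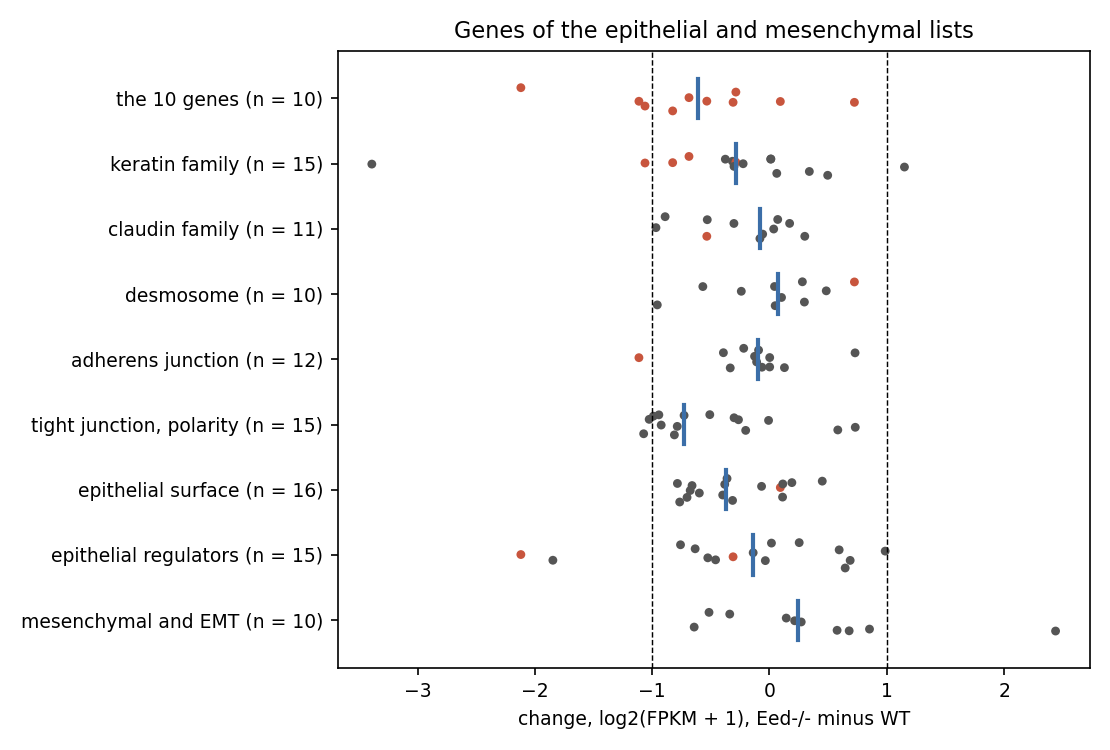
Change on the log2(FPKM + 1) scale, Eed-/- minus WT (x axis), of each gene of the lists (y axis, with the number of genes used); red points are the 10 genes, grey points other genes, blue bars the list medians and dashed lines 2-fold. The tight junction and polarity genes lie mostly below 0 (median -0.73), the desmosome genes around 0 (median 0.08), and Vim far to the right.

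Markers of other cell types that could be in a mESC culture were summed beside these genes. The FPKM of 12 trophoblast markers, of which Elf5, Prl3d1 and Tpbpa were at 0 in both libraries, summed to 46.7 in WT against 17.7 in the library labelled Eed-/-, and Tfap2c alone made up most of both sums. Without Tfap2c, the other 11 summed to 6.99 and 8.44. Eomes, a trophoblast and mesendoderm factor, had 0.478 and 1.93. The 12 extraembryonic endoderm markers, with Afp and Ttr at 0 in both, summed to 45.5 and 82.0. The higher sum came mainly from Lama1, at 8.25 and 33.5, and Col4a1, at 5.62 and 19.1. Lamb1, the most abundant of these markers in WT, was at 29.6 and 24.8. Of the 9 that passed the filter, 8 were above 0 and 1 below, with a median change of 0.54. Of all genes used, 49.0% were below 0. The 10 fibroblast markers, with Dcn and Fap at 0 in both, summed to 2.35 and 8.05, with Thy1 at 0.976 and 6.97. Without Thy1, the other 9 summed to 1.37 and 1.08. The 12 pluripotency markers summed to 1708 and 1858. The part of other cells in the levels of the 10 genes was not tested.

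The genes next to the 10 were also looked up. No contrast with the 10 is drawn, since those were chosen with their values known. Of 36 neighbours, the 2 nearest on each side and none of them among the 10, 27 passed the filter, with a median change of -0.11. None was at least 2-fold lower, beside 3.98% of all genes used, and Krt13 was the 1 gene at least 2-fold higher, beside 3.80%. Eif4b, 41747 bp beyond Krt18, had 223 and 194 and a change of 0.01.

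**Figure D5:**
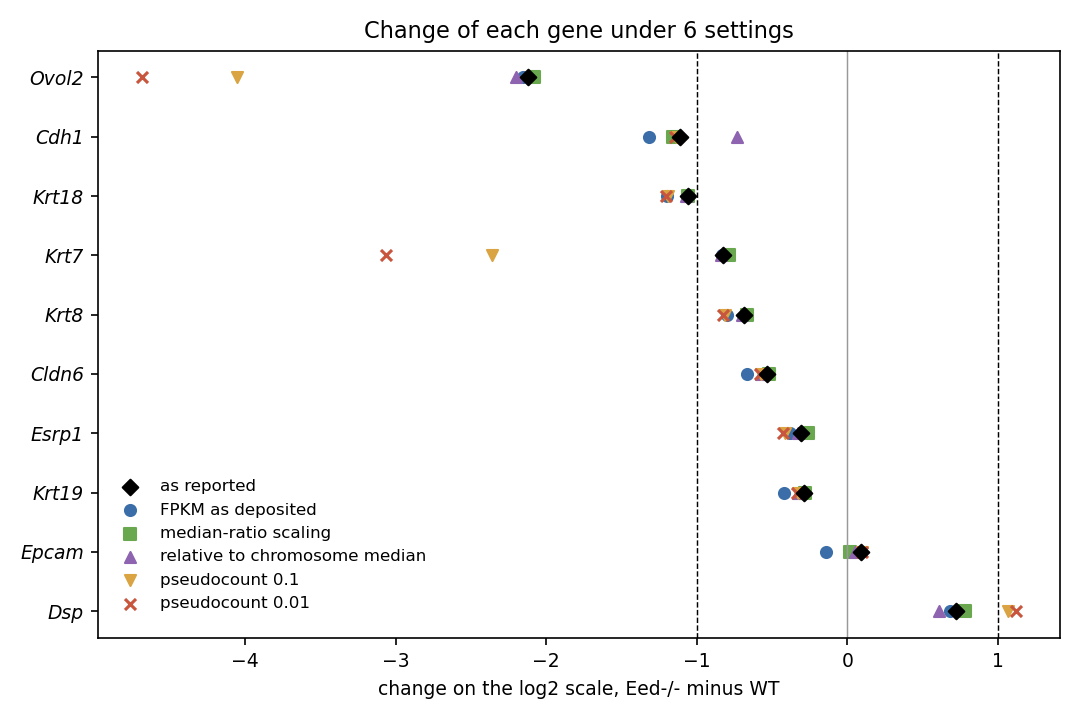
Change of each of the 10 genes (y axis) on the log2 scale, Eed-/- minus WT (x axis), as reported (black) and under 5 other settings, with dashed lines at 2-fold. Ovol2 stays beyond 2-fold in each, Cdh1 moves inside it relative to its chromosome, Krt7 passes it with smaller pseudocounts, and Epcam changes sign with the FPKM as deposited.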

How the data were processed

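RNA of WT mESCs and of mESCs labelled Eed-/- was sequenced after removal of ribosomal RNA, as 1 strand-specific library per genotype. The authors aligned the reads to mm9 and deposited FPKM per gene symbol. The submitters' processing notes name Bowtie2 2.2.2, TopHat2 2.0.11 and Cufflinks 2.2.1, while the annotation and the counting options are not given in the sources used here. No column of counts was used, and the other assays of the study were not analysed here.

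Each table held 24525 rows and 24028 symbols. For the 268 symbols that appear repeatedly, the values were added up, and none of the 10 genes was among them. Libraries were quantile-normalized, changes were taken in log2(FPKM + 1), and genes averaging 0.1 normalized FPKM or more were kept, with a threshold of 2-fold on that scale. With 1 library per genotype there was no test and no p-value.

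Low FPKM values rise in steps of 1 fragment, and the size of these steps in single-transcript genes of 1000 bp or longer, each shortened by 180 bp, gave the depth. Of 839 such values in WT and 946 from the Eed-/- label, 78.9% and 79.6% lay within 0.1 of a whole fragment, against 21.4% and 19.7% with lengths shuffled among genes. Fragment numbers use the longest annotated coding transcript and are approximate for genes with several. For Krt7 the smallest pair of whole fragments was used instead, which implies a transcript of 1586 bp. The longest annotated transcript of 4094 bp would give 27.8 and 2.78 fragments. Intervals at 95% are exact Poisson intervals for levels and exact binomial ones for ratios, and cover counting error only.

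Positions came from GENCODE vM1 on mm9. Promoter windows were read from a RefSeq table, and near-identical copies (at least 80% of the transcript at 95% identity) were counted with minimap2. The computations were tested on simulated data and run with scipy 1.17.1, numpy 2.4.6, matplotlib 3.10.9 and pandas 2.3.3 in Python 3.11.15.

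The 10 genes, the gene lists and the tests were chosen with earlier results of these data known. The genes named were the 10, up to 6 genes of each epithelial or mesenchymal list past 2-fold and its 3 genes highest in mean level, up to 4 and 3 of each marker list, the 2 genes on each side of each of the 10, and Eed, and the text names those that bear on a result. Not every gene that the rule selects is reported. No likeness between genes was measured over 2 libraries. The alternatives were other scalings, pseudocounts, filters and thresholds, and a subtraction of each chromosome's median change.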

Additional observations from a re-analysis of the deposited data

How the results depend on the processing

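Among 89 values recomputed for single genes of the 10, 85 moved by less than their counting error and 4 by more. A changed filter cannot alter a gene's own value, and leaving out repeated symbols or small RNAs hardly did. Part of the 85 was thus fixed in advance, and the count is no measure of robustness. The intervals of Krt7 and Ovol2 are so wide that large moves count as within them, since with a pseudocount of 0.01 Krt7 went from -0.83 to -3.06 and Ovol2 from -2.12 to -4.68. Cdh1 was at -1.31 with the FPKM as deposited and at -0.73 relative to its chromosome, and Dsp at 1.12 with a pseudocount of 0.01. Epcam changed sign, from 0.09 to -0.14, with the FPKM as deposited, a scaling that moved the median of all genes to -0.09 and gave 801 genes at least 2-fold lower and 455 higher, instead of 590 and 564. With either smaller pseudocount (0.1 or 0.01) 4 of the 10 genes were at least 2-fold lower instead of 3, relative to the chromosome median 2 were, and with those pseudocounts 1 gene, Dsp, was at least 2-fold higher, as it was past a 1.5-fold threshold. Past that threshold 5 of the 10 were lower, and past 3-fold 1 was. Over all 14835 genes, the lower and higher counts were 1778 and 1694 (12.0% and 11.4%) with a pseudocount of 0.1. With 0.01 they were 1989 and 1914 (13.4% and 12.9%). They were 137 and 152 (0.92% and 1.02%) at 3-fold and 1841 and 1819 (12.4% and 12.3%) at 1.5-fold. Relative to the chromosome median they were 533 and 514 (3.59% and 3.46%). Low values carry few fragments, so the ratios of Ovol2 and Krt7 are known only within wide bounds. No paired analysis was possible because each genotype has 1 library, and for the same reason no library could be left out.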
